A study of Homo sapiens with 12 samples.

Results

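The transcriptome of HEK293 Flp-In cells supplied with TAF5 that lacks exon 8 (ΔE8) was compared with that of cells given a non-targeting siRNA (siNT), which kept their endogenous TAF5. HEK293 Flp-In cells derive from human embryonic kidney and take up a transgene at 1 prepared place in the genome. The comparison took 6 of the 12 libraries of the study, 3 of each group chosen by their column labels, and all 19424 genes of 32010 that passed a filter on low counts. In the ΔE8 group a single siRNA against TAF5 was transfected, doxycycline was added 24 h later, and an siRNA-resistant TAF5 transgene without exon 8 was expressed for 48 h before lysis. Cells of the FL group had the same siRNA and a full-length, siRNA-resistant transgene, and cells of the siTAF5 group had the siRNA without a named transgene. The siNT group had the non-targeting siRNA, and the labels name siRNA and doxycycline as the treatment of all 4 groups. The FL and ΔE8 transgenes were induced with different doxycycline doses, and the labels do not say in which Flp-In line the siNT and siTAF5 cells were grown. The siRNA, the transgene, its line and its dose therefore cannot be told apart in ΔE8 against siNT. Nothing in the labels says that the 3 libraries of a group came from separate cultures, so p-values measure the spread between these libraries, which may be technical.

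TAF5 is a subunit of TFIID, the complex that recognises core promoters and places the TATA-binding protein there so that RNA polymerase II can start transcription. Inside TFIID it forms a core with TAF6 and TAF9, and its C-terminal part folds into WD40 repeats, a propeller-shaped domain through which subunits contact each other. The related SAGA complex, a histone-modifying coactivator, shares several TAFs with TFIID but uses the paralogue TAF5L in place of TAF5.

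Exon 8 is shown because its absence defines the ΔE8 cells. In the annotated transcript TAF5-201, which has 11 exons and 800 codons, it is an internal coding exon of 165 bases at chr10:103385326-103385490 on the plus strand (GRCh38). Its length is a multiple of a codon, so its removal shortens the reading frame by 55 codons without a shift. It runs from base 3 of codon 555 to base 2 of codon 610. The exon is in capitals, with 15 bases of exon 7 before it and of exon 9 after it in lower case.
TAF5 exon 8: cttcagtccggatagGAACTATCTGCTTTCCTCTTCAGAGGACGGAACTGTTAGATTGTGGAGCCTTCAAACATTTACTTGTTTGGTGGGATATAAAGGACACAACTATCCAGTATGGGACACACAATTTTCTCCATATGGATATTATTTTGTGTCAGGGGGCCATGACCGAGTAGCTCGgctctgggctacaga
The deposited counts are per gene and do not resolve this exon, so they do not show by themselves that the TAF5 RNA of the ΔE8 libraries lacked it.

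TAF5 RNA (chromosome 10, 103367966 to 103389065) was present at 87.61, 87.49 and 88.86 CPM in the ΔE8 libraries, against 39.17, 40.5 and 40.21 CPM in the siNT libraries (CPM, counts scaled to library size, here and below). The 3 ΔE8 libraries all lay above the 3 siNT libraries. TAF5 was 2.2-fold higher in ΔE8 (log2 fold change 1.14, SE 0.033, edgeR adjusted p = 1.06e-15). The same RNA stood at 102.6, 105.6 and 107.4 CPM in FL and 6.131, 7.354 and 6.685 CPM in siTAF5. Levels were thus highest in FL, then in ΔE8, then in siNT, and lowest in siTAF5, with no overlap between groups. The series describes expression of the transgenes at endogenous levels; TAF5 RNA in ΔE8 was 88 ± 0.757 CPM, against 40.0 ± 0.698 CPM in siNT (mean ± SD, n = 3 libraries here and below). The counts are not corrected for transcript length, and exon 8 makes up 5.05% of the 3268 bases of the annotated transcript.

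The ΔE8 libraries held 41.8 to 61.2 M estimated counts and the siNT libraries 54.8 to 61.8 M. On the first principal component of all 12 libraries, which held 34.5% of the variance, ΔE8 libraries lay at -28.9, -29.9 and -34.7 and siNT libraries at 42.4, 38.9 and 39.3. The siTAF5 and FL libraries lay between them, from -14.0 to 3.06. Mitochondrially encoded transcripts took 0.870% to 0.969% of counts in ΔE8 and 1.06% to 1.29% in siNT. The markers of the HEK293 line VIM, CDH2, KRT8, KRT18 and NEFL were detected in every group. Among markers of other cell types, KRT5, KRT7 and KRT14 of keratin-rich epithelium, FAP of fibroblasts and CD3E of lymphocytes averaged 0 CPM in ΔE8 and at most 0.0165 CPM in siNT. Others of these markers were expressed in the line. KRT19, EPCAM and CDH1 of epithelium averaged 70.9, 67.7 and 3.77 CPM in ΔE8, against 77.1, 84.4 and 11.9 CPM in siNT. COL1A1 of fibroblasts and CD68, HBA1 and CORO1A of blood cells averaged 7.37, 7.86, 6.89 and 6.04 CPM in ΔE8, against 13.7, 9.68, 9.76 and 7.22 CPM in siNT.

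Of the 19424 genes tested, 12091 (62.2%) differed between ΔE8 and siNT by edgeR's quasi-likelihood test (Benjamini-Hochberg adjusted p below 0.05). ΔE8 was higher for 5987 of them (30.8% of the genes tested) and lower for 6104 (31.4%). Most differences were small, and the median absolute log2 fold change of the genes called was 0.36. Those of at least 2-fold were fewer, 518 higher (2.67%) and 792 lower (4.08%). The libraries of both groups did not overlap for 65.7% of genes tested, with ΔE8 above siNT for 32.7% and below it for 33%. With so many genes called, counts within a gene list are read below against the shares of 30.8% and 31.4%, and a list's median against the median of all genes tested, which was close to 0. Many genes named below overlap another tested gene. On the same strand these are KAT2A, MED20, NOP2, SNHG32, ASNS, HARS1, HSPA1B, NUSAP1, ATP5PO, ENO2, TM7SF2, BCL2L2, OIP5-AS1, CD68, TUBB3, TAF6, TAF9 and TAF10, and on the opposite strand, among others, TAF5, SQSTM1, TAF12, RPS25, PSMC1, HSP90AA1 and HNRNPU, so their counts may include reads of the partner.

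**Figure D1:**
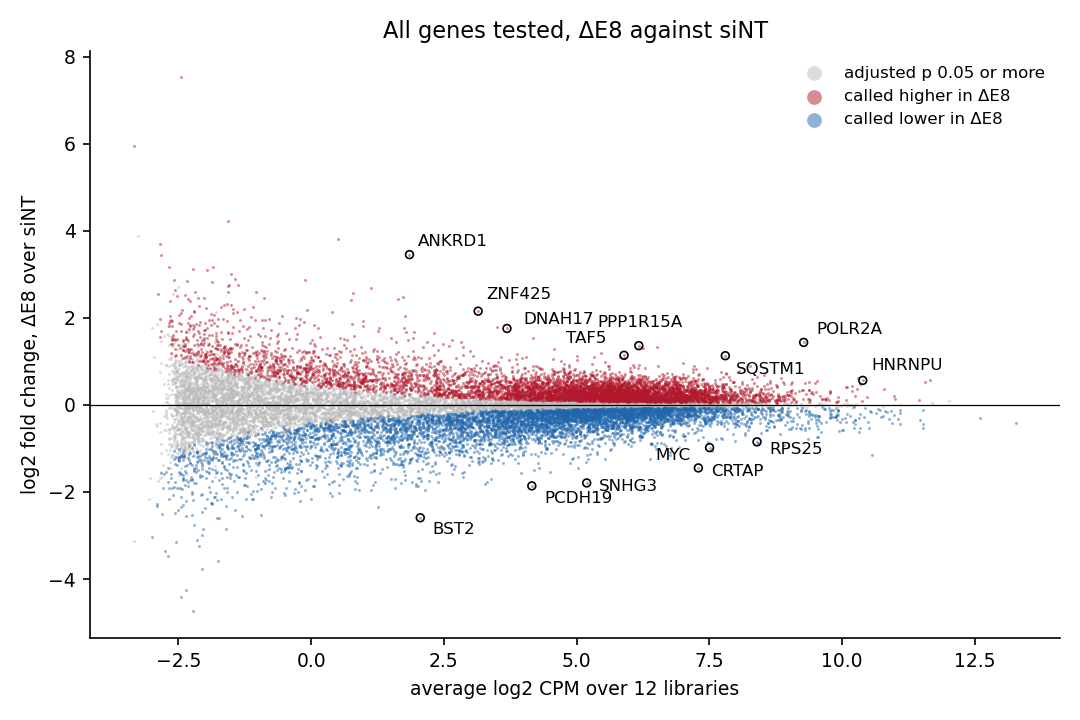
Log2 fold change of ΔE8 over siNT (vertical axis) against the average log2 CPM over 12 libraries (horizontal axis), 1 point a gene, for the 19424 genes tested. Red points were called higher and blue points lower in ΔE8 at an adjusted p under 0.05; circles mark 14 genes named in the text, among them POLR2A at 1.43 and CRTAP at -1.45.

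Among well-expressed genes (average log2 CPM of at least 2, no overlap of the libraries of both groups), POLR2A was 1 of the 12 with the largest rise. It encodes the largest subunit of RNA polymerase II (chromosome 17, 7484366 to 7514616). Its RNA reached 908.5, 954.5 and 914.9 CPM in the ΔE8 libraries, against 338, 348.1 and 341.4 CPM in the siNT libraries. ΔE8 was 2.7-fold higher with no overlap (log2 fold change 1.43, SE 0.024, edgeR adjusted p = 2.85e-19). It also exceeded both other groups, which had 509.6, 504.8 and 497.7 CPM in FL and 709.5, 694.3 and 717.1 CPM in siTAF5.

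ZNF425, a zinc finger gene (chromosome 7, 149102784 to 149126324), had the largest rise of the 12. It was measured at 15.06, 13.9 and 14.29 CPM in the ΔE8 libraries, against 3.165, 3.488 and 3.079 CPM in the siNT libraries. The lowest ΔE8 library was well above the highest siNT library, and the difference was 4.44-fold (log2 fold change 2.15, SE 0.071, edgeR adjusted p = 6.95e-15). DHRS2, a mitochondrial short-chain dehydrogenase/reductase, was 3.48-fold higher, at 16.7 ± 0.678 CPM in ΔE8 against 4.79 ± 0.0308 CPM in siNT. Both genes were also higher in ΔE8 than in siTAF5, by 0.39 and 0.29 on the log2 scale (edgeR adjusted p = 3.51e-05 and 9.42e-05).

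Several of the largest rises were of genes known from stress responses. PPP1R15A, also called GADD34, encodes the phosphatase subunit that reverses phosphorylation of the translation factor eIF2α. It stood at 102.8, 103.9 and 105.3 CPM in the ΔE8 libraries, against 41.14, 40.23 and 40.13 CPM in the siNT libraries, 2.57-fold higher without overlap (log2 fold change 1.36, SE 0.032, edgeR adjusted p = 8.59e-17). HSPB8, a small heat shock protein, was 2.64-fold higher, at 8.03 ± 0.674 CPM in ΔE8 against 3.04 ± 0.251 CPM in siNT; it overlaps an unnamed gene on the same strand, so its count is uncertain. TP53I3, an oxidoreductase gene activated by p53, was 2.5-fold higher, at 5.32 ± 0.14 CPM in ΔE8 against 2.12 ± 0.0685 CPM in siNT.

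The remaining large rises were of varied kinds. The axonemal dynein gene DNAH17 was 3.37-fold higher, at 19.2 ± 1.06 CPM in ΔE8 against 5.69 ± 0.492 CPM in siNT. The histone gene H4C8 was 3.15-fold higher, at 7.3 ± 0.411 CPM in ΔE8 against 2.31 ± 0.0748 CPM in siNT. TLCD1, a regulator of membrane lipid composition, stood at 26.2 ± 1.41 CPM in ΔE8 against 9.01 ± 1.05 CPM in siNT, a 2.91-fold difference. AKAP3, an anchoring protein of the sperm tail, was 2.72-fold higher, at 10.1 ± 0.90 CPM in ΔE8 against 3.69 ± 0.39 CPM in siNT. The noncoding RNAs PSMG3-AS1 and ZBTB11-AS1 were 2.79-fold and 2.57-fold higher. Both overlap a coding gene on the opposite strand, as TLCD1 overlaps RPL23A and NEK8, DNAH17 PGS1, TP53I3 FAM228B and AKAP3 an unnamed gene. It is not known whether the counting used strand, so reads of these partners cannot be told apart from theirs.

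BST2 had the largest fall among well-expressed genes. It encodes tetherin, an interferon-induced membrane protein that holds enveloped viruses at the cell surface (chromosome 19, 17402939 to 17405630). Its RNA stood at 1.46, 1.354 and 1.234 CPM in the ΔE8 libraries, against 8.169, 7.752 and 8.717 CPM in the siNT libraries. All ΔE8 libraries lay far below all siNT libraries, a 6.03-fold difference (log2 fold change -2.59, SE 0.12, edgeR adjusted p = 3.28e-13). The FL and siTAF5 libraries were in between, at 3.565, 3.012 and 2.459 CPM in FL and 3.3, 3.519 and 3.316 CPM in siTAF5. IL32, an inflammatory cytokine gene, was 3.9-fold lower, at 2.04 ± 0.319 CPM in ΔE8 against 7.98 ± 0.378 CPM in siNT.

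Cell adhesion and matrix genes made up part of the largest falls. PCDH19 encodes a protocadherin of the developing brain (chromosome X, 100291644 to 100410273). It was measured at 7.434, 9.121 and 7.407 CPM in the ΔE8 libraries, against 28.3, 29.47 and 29.51 CPM in the siNT libraries. No library overlapped, and ΔE8 was 3.63-fold lower (log2 fold change -1.86, SE 0.062, edgeR adjusted p = 8.35e-15). The fibril-associated collagen gene COL21A1 was 3.52-fold lower, at 4.38 ± 0.634 CPM in ΔE8 against 15.6 ± 0.572 CPM in siNT. SPARC, a secreted matrix glycoprotein, was 3.35-fold lower, at 2.0 ± 0.145 CPM in ΔE8 against 6.65 ± 0.217 CPM in siNT.

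Genes best known from neurons or signalling formed another part. The synaptic scaffold gene DLG4 was 3.41-fold lower, at 5.2 ± 0.204 CPM in ΔE8 against 17.8 ± 0.337 CPM in siNT. RAB3A, a small GTPase of synaptic vesicles, was 3.4-fold lower, at 2.62 ± 0.152 CPM in ΔE8 against 8.97 ± 0.416 CPM in siNT. CACNA1G, a T-type calcium channel gene, stood at 2.23 ± 0.239 CPM in ΔE8 against 7.25 ± 0.497 CPM in siNT, a 3.23-fold difference. The kinase gene LMTK3 was 3.37-fold lower and PIK3CD, a catalytic subunit of phosphoinositide 3-kinase, 3.27-fold lower. CALML4, a calmodulin-like gene, was 3.64-fold lower. Its count is uncertain, since it overlaps an unnamed gene on the same strand, and DLG4, RAB3A and PIK3CD overlap genes on the opposite strand. Of 8 markers of mature neurons tested, 2 were called higher (TUBB3 and SYN1) and 5 lower, RAB3A among them. Their summed level ran from 37.87 to 39.43 CPM in ΔE8 and from 41.09 to 42.04 CPM in siNT, and its part in these falls was not tested.

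SNHG3, a noncoding RNA whose introns carry small nucleolar RNAs, was also among the 12 largest falls (chromosome 1, 28505980 to 28510892). Its RNA stood at 17.59, 19.38 and 19.96 CPM in the ΔE8 libraries, against 65.78, 65.46 and 65.35 CPM in the siNT libraries. It was 3.47-fold lower with no overlap (log2 fold change -1.79, SE 0.045, edgeR adjusted p = 2.36e-16). The gene overlaps RCC1 and SNORA73B on the same strand, so its count may include reads of either.

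**Figure D2:**
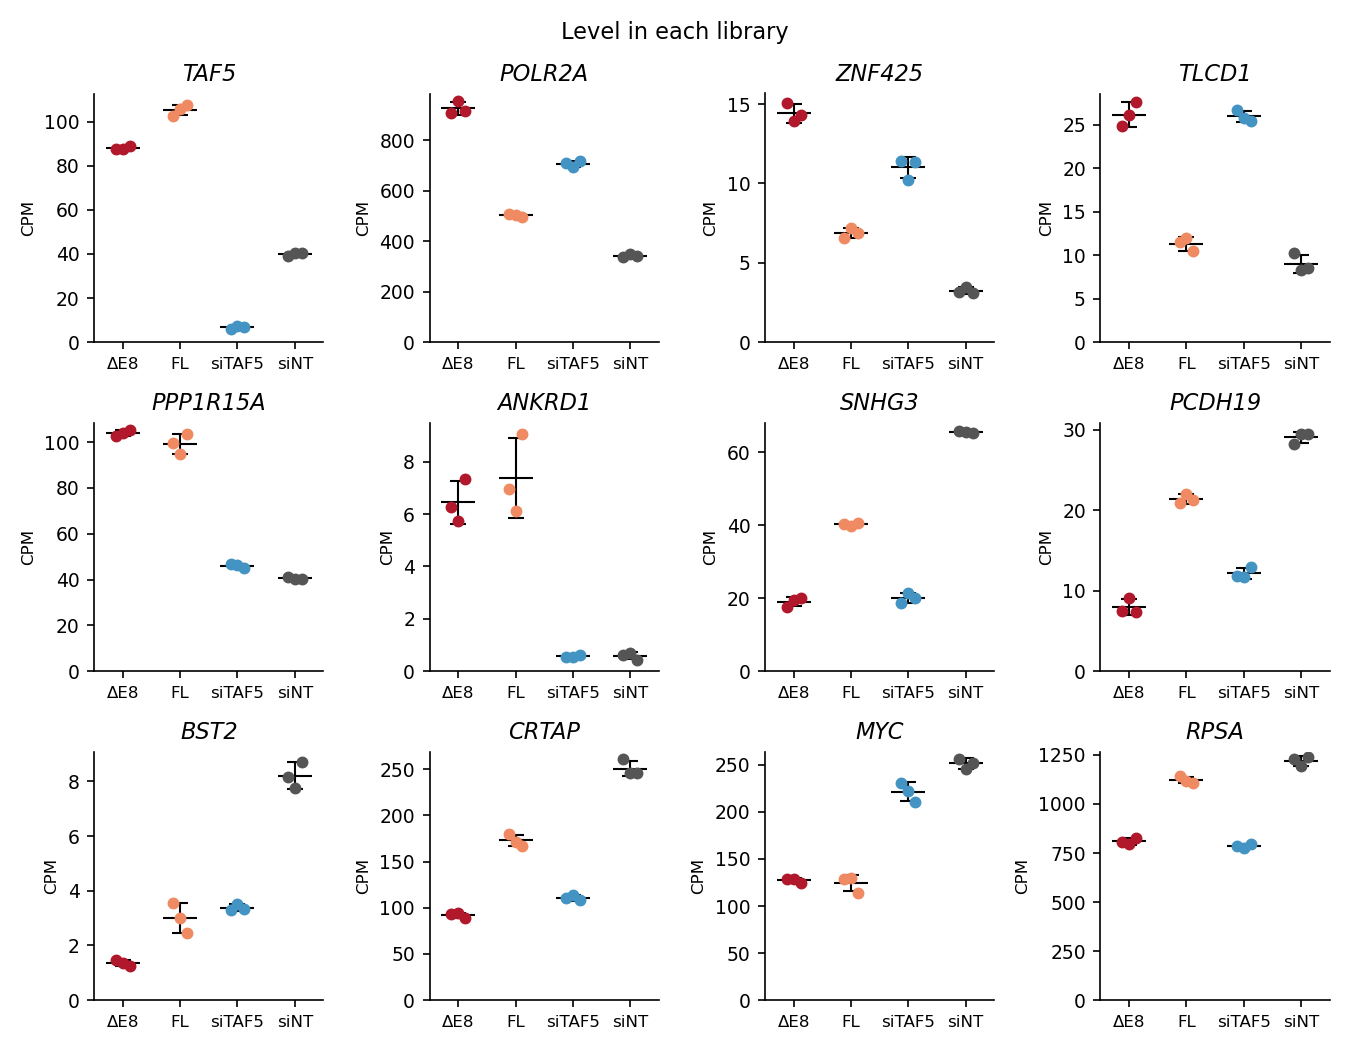
Level of 12 genes in each library, in CPM (vertical axis, from 0), for ΔE8, FL, siTAF5 and siNT. Points are libraries, the horizontal dash is the mean and the bar the SD of 3 libraries; POLR2A is highest and BST2 lowest in ΔE8, while ANKRD1 and PPP1R15A are high in both ΔE8 and FL.

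Genes with high counts that changed at least 2-fold were few. SQSTM1, the autophagy receptor p62, stood at 305.6, 303 and 329.2 CPM in the ΔE8 libraries, against 146.5, 140.2 and 141.9 CPM in the siNT libraries. It was 2.19-fold higher, again without overlap (log2 fold change 1.13, SE 0.030, edgeR adjusted p = 4.96e-16). CRTAP, a cartilage-associated protein needed for collagen modification, stood at 92.93, 93.9 and 88.55 CPM in the ΔE8 libraries, against 260.6, 245.5 and 246.2 CPM in the siNT libraries. It was 2.73-fold lower (log2 fold change -1.45, SE 0.033, edgeR adjusted p = 6.35e-17). KCTD12, an auxiliary subunit of GABA-B receptors, was 2.08-fold lower, at 129 ± 6.34 CPM in ΔE8 against 269 ± 1.6 CPM in siNT.

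**Figure D3:**
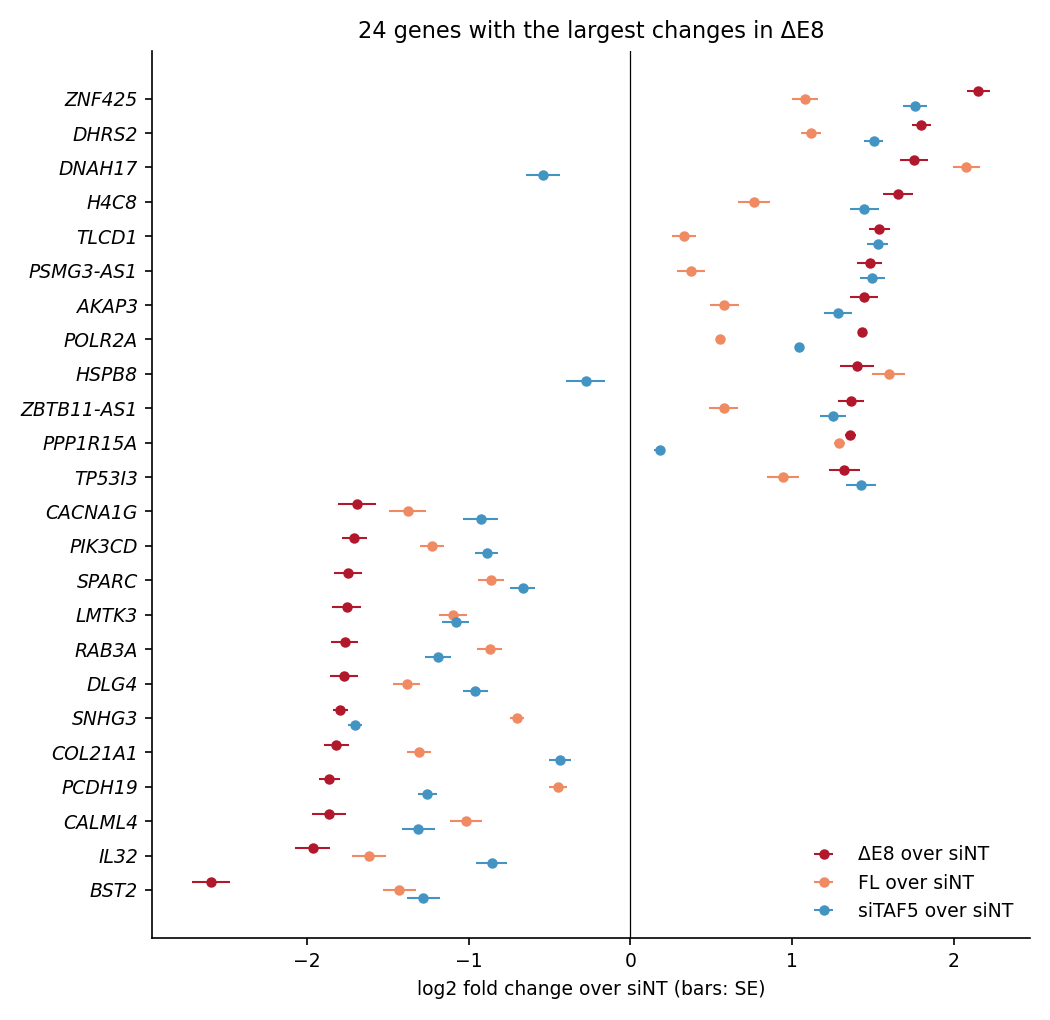
Log2 fold change over siNT (horizontal axis, bars are SE) of the 12 genes with the largest rise and the 12 with the largest fall in ΔE8, for ΔE8 (red), FL (orange) and siTAF5 (blue). HSPB8 and PPP1R15A lie near FL, TLCD1, PSMG3-AS1 and SNHG3 near siTAF5, and BST2 beyond both.

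Core promoters are shown for 6 genes named in the text, because TFIID binds there. The 6 were picked by hand, so they do not stand for the rises or the falls as a whole. The windows run from 60 bases before to 20 bases from the annotated start (RefSeq, GRCh38.p14) on the gene's own strand, and capitals mark the letters TATAAA.
DHRS2, chr14:23630055-23630134, plus strand: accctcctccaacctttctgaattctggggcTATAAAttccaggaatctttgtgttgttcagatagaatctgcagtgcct
PPP1R15A, chr19:48872361-48872440, plus strand: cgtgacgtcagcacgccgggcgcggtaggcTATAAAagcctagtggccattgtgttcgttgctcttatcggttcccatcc
H2BC12, chr6:27146839-27146918, minus strand: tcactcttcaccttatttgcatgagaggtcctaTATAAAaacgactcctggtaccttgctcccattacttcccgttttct
POLR2A, chr17:7484306-7484385, plus strand: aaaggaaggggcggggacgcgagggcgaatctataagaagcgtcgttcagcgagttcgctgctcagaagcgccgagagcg
SNHG3, chr1:28505883-28505962, plus strand: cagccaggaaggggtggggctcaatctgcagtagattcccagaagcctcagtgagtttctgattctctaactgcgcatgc
PCDH19, chrX:100410254-100410333, minus strand: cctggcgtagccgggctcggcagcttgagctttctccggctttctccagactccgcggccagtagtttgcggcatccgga
The letters stood at -29 in DHRS2, -30 in PPP1R15A and -27 in H2BC12, genes that were higher in ΔE8, and were not in the windows of POLR2A, SNHG3 and PCDH19. A match describes letters only and is not a binding site. Among genes with a promoter in the RefSeq table, TATAAA on the gene's strand between -40 and -20 was found in 19 of 221 (8.60%) that were at least 2-fold higher and in 11 of 492 (2.24%) that were at least 2-fold lower. The share was 2.40% over all 12580 tested genes with a promoter and 2.92% over the 27305 promoters of the table. Of those 19 genes, 3 were replication-dependent histone genes. Over all genes called at a log2 CPM averaging 2 or more, whatever their fold change, the shares were close. They were 1.95% of those higher and 2.02% of those lower. The 2-fold sets at that expression level differed, though their counts were small. The letters were found in 4 of 32 (12.5%) at least 2-fold higher and in 1 of 118 (0.85%) at least 2-fold lower. The share of all tested genes with a promoter at that level was 1.82%. These shares are descriptions without a test, and only 42.7% of the genes at least 2-fold higher were in the table.

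The transcription machinery to which TAF5 belongs moved mostly upwards. Of the other 16 TFIID subunits, 12 were called higher and 2 lower, with a median log2 fold change of 0.30. TAF12, a histone-fold subunit that pairs with TAF4 (chromosome 1, 28587829 to 28648291), was present at 33.71, 33.1 and 35.66 CPM in the ΔE8 libraries, against 17.66, 16.84 and 16.78 CPM in the siNT libraries. It was 2.0-fold higher without overlap (log2 fold change 1.00, SE 0.042, edgeR adjusted p = 1.72e-13), the largest difference of the 16. TAF3, the subunit that reads trimethylated lysine 4 of histone H3, was 1.54-fold higher, at 48.7 ± 0.389 CPM in ΔE8 against 31.6 ± 0.295 CPM in siNT. TAF9B, a close relative of TAF9, was 1.47-fold higher, at 81.5 ± 3.76 CPM in ΔE8 against 55.3 ± 1.61 CPM in siNT.

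TAF13, TAF4, TAF15, TAF11, TAF2 and TAF6 were between 1.23-fold and 1.4-fold higher. TAF9 was 1.15-fold higher. TAF1, the largest TFIID subunit, was 1.08-fold higher (edgeR adjusted p = 0.00441), but it lost the call with upper-quartile scaling. The TATA-binding protein gene TBP stood at 31.6 ± 0.881 CPM in ΔE8 against 29.5 ± 1.02 CPM in siNT (edgeR adjusted p = 0.0278) and lost its call in 7 alternatives, where the adjusted p ran from 0.0501 to 0.192, among them leaving out ΔE8 replicate 2, siNT replicate 2 or siNT replicate 3 (edgeR adjusted p = 0.167, 0.126 and 0.081). The subunits that fell were TAF8, a histone-fold partner of TAF10, 1.33-fold lower at 39.8 ± 2.18 CPM in ΔE8 against 52.9 ± 2.13 CPM in siNT, and TAF4B, 1.11-fold lower. TAF10 and TAF7 did not pass the test, with log2 fold changes of 0.10 and 0.07 (edgeR adjusted p = 0.0986 and 0.076).

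Among RNA polymerase II subunits and general factors, 18 of the 29 members tested were called higher and 2 lower, with a median log2 fold change of 0.19. Beside POLR2A, the small subunit gene POLR2L was 1.6-fold higher, at 86.3 ± 3.17 CPM in ΔE8 against 53.8 ± 1.43 CPM in siNT. GTF2A1, which encodes the TFIIA chains that stabilise TFIID on DNA, was 1.6-fold higher, at 122 ± 2.95 CPM in ΔE8 against 76 ± 2.66 CPM in siNT. GTF2H1 of TFIIH was 1.35-fold higher. The summed level of the list ran from 3015 to 3051 CPM in ΔE8 and from 2202 to 2223 CPM in siNT.

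Mediator, the complex that links activators to the polymerase, had 23 subunits called higher and 3 lower of 32, with a median of 0.24. MED29 stood at 178, 183.1 and 177 CPM in the ΔE8 libraries, against 102.7, 100.9 and 102.3 CPM in the siNT libraries, 1.76-fold higher without overlap (log2 fold change 0.81, SE 0.025, edgeR adjusted p = 2.3e-15). MED20 was 1.72-fold, MED27 1.35-fold and MED12 1.34-fold higher. In SAGA, 7 of 16 subunits were called higher and 3 lower, with a median of 0.06. Its acetyltransferase gene KAT2A was 1.25-fold higher, whereas TADA1 was 1.25-fold lower and ATXN7L3 1.13-fold lower. With upper-quartile scaling, SAGA no longer had more members called higher than lower.

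Replication-dependent histone genes had the highest median of the 34 lists, 0.69. Of 54 in the table, 39 passed the filter on low counts, 23 were called higher and 0 lower. H2BC12, an H2B gene (chromosome 6, 27146361 to 27146855), was present at 120.5, 118.9 and 118.7 CPM in the ΔE8 libraries, against 67.47, 63.28 and 61.49 CPM in the siNT libraries. It was 1.86-fold higher and did not overlap (log2 fold change 0.90, SE 0.037, edgeR adjusted p = 9.46e-14). H2AC6 was 1.86-fold higher at 13.9 ± 0.0813 CPM in ΔE8 against 7.49 ± 0.474 CPM in siNT, and H3C10 1.79-fold higher at 19.8 ± 0.933 CPM in ΔE8 against 11 ± 0.505 CPM in siNT. H1-2, a linker histone gene, had a log2 fold change of 0.59.

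Summed histone levels were 427.4 to 438.9 CPM in ΔE8, 175.7 to 183.5 CPM in FL, 573.1 to 581.2 CPM in siTAF5 and 306.5 to 319.6 CPM in siNT. The 4 groups did not overlap, with siTAF5 highest, ΔE8 next and FL lowest. These mRNAs normally end in a stem-loop without a poly(A) tail, and the libraries were made from polyadenylated RNA, so only their polyadenylated part was counted. Several of these genes are nearly identical in sequence, so counts of single members are uncertain.

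Ribosomal protein transcripts were mostly lower. Of 78 cytosolic ribosomal protein genes, 1 was called higher (RPL12) and 71 lower, with a median log2 fold change of -0.32. RPS25 (chromosome 11, 119015712 to 119018691) had the largest fall. It stood at 259.2, 249.4 and 247.9 CPM in the ΔE8 libraries, against 460.9, 449 and 453.7 CPM in the siNT libraries, 1.8-fold lower without overlap (log2 fold change -0.85, SE 0.024, edgeR adjusted p = 7.02e-16). RPLP2 of the ribosomal stalk was 1.59-fold lower at 367 ± 9.31 CPM in ΔE8 against 583 ± 10.3 CPM in siNT, RPS23 1.54-fold lower at 629 ± 10.6 CPM in ΔE8 against 969 ± 13.4 CPM in siNT, and RPSA 1.51-fold lower at 810.0 ± 17 CPM in ΔE8 against 1219 ± 24.2 CPM in siNT. The summed level of the list was 67130 to 69350 CPM in ΔE8 and 82070 to 85770 CPM in siNT, and these groups did not overlap. Processed pseudogenes of ribosomal protein genes can take some of their reads, which makes single values uncertain.

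Host genes of small nucleolar RNAs had the lowest median of the 29 lists that are not cell type markers, -0.69. Of 21 tested, 16 were called lower and 4 higher. Next to SNHG3, SNHG16 was 1.95-fold lower at 87.4 ± 2.31 CPM in ΔE8 against 171 ± 2.88 CPM in siNT, SNHG29 1.83-fold lower at 249 ± 3.47 CPM in ΔE8 against 455 ± 11.5 CPM in siNT, and SNHG32 1.82-fold lower at 70.9 ± 1.79 CPM in ΔE8 against 129 ± 3.84 CPM in siNT. SNHG9, SNHG17, SNHG15 and SNHG20 rose, with log2 fold changes of 0.94, 0.65, 0.34 and 0.18.

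Ribosome biogenesis factors were mixed, with 15 of 31 called higher, 7 lower and a median of 0.07. The rRNA methyltransferase gene NOP2 was 1.54-fold higher at 174 ± 2.9 CPM in ΔE8 against 112 ± 1.58 CPM in siNT, UTP20 1.45-fold higher and POLR1A, the largest subunit of RNA polymerase I, 1.34-fold higher. GNL3, nucleostemin, was 1.5-fold lower at 127 ± 4.53 CPM in ΔE8 against 191 ± 9.55 CPM in siNT. Among aminoacyl-tRNA synthetase genes, 5 of 20 were higher and 11 lower, with a median of -0.08. RARS1 was 1.52-fold and HARS1 1.35-fold higher, whereas QARS1 was 1.35-fold and YARS1 1.31-fold lower.

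Targets of ATF4, the transcription factor of the amino acid and integrated stress responses, were mostly lower: 24 of 29 were called lower and 3 higher, with a median of -0.37. ASNS, asparagine synthetase, stood at 171.9, 160.6 and 160 CPM in the ΔE8 libraries, against 282.9, 280.9 and 290.1 CPM in the siNT libraries. It was 1.73-fold lower, and the groups did not overlap (log2 fold change -0.79, SE 0.037, edgeR adjusted p = 4.94e-13). The proline synthesis gene PYCR1 was 1.82-fold lower at 38 ± 1.53 CPM in ΔE8 against 69.4 ± 3.36 CPM in siNT. ATF4 itself had a log2 fold change of -0.44, its stress targets DDIT3 and TRIB3 -0.59 and -0.50, and the cystine transporter gene SLC7A11 -0.69. Against this, SLC3A2, the partner chain of amino acid transporters, was 1.6-fold higher at 194 ± 6.68 CPM in ΔE8 against 121 ± 1.32 CPM in siNT, and ATF3 1.43-fold higher at 111 ± 1.5 CPM in ΔE8 against 77.8 ± 3.07 CPM in siNT. PPP1R15A, described above and also an ATF4 target, rose.

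**Figure D4:**
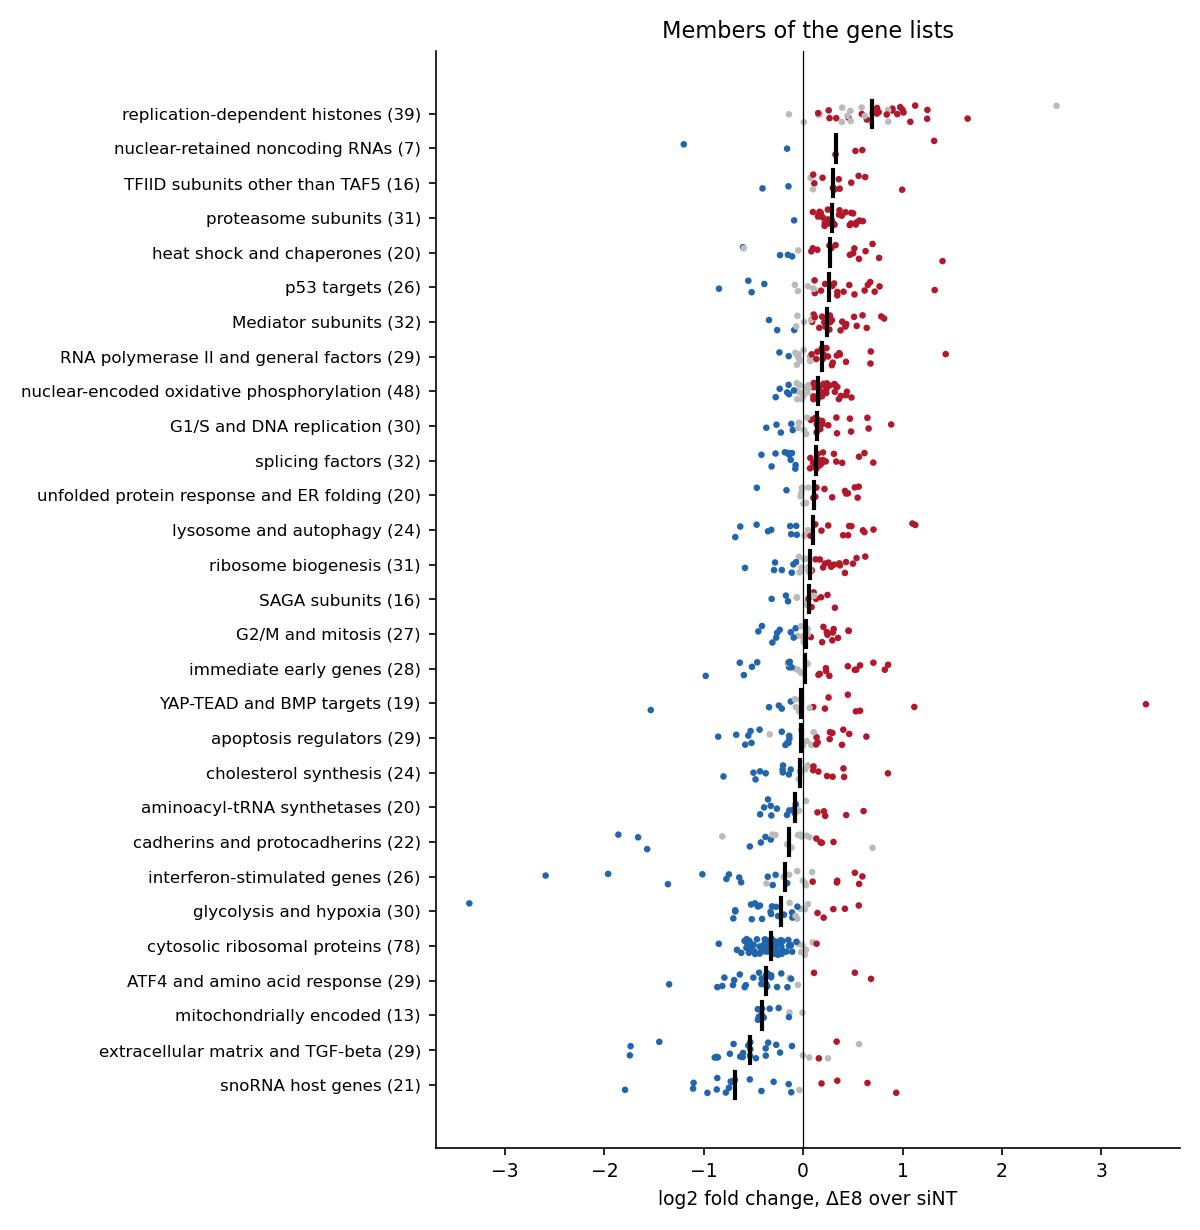
Log2 fold change of ΔE8 over siNT (horizontal axis) for the tested members of the 29 gene lists other than cell type markers, 1 point a gene, with the number tested in brackets. Red was called higher, blue lower and grey not called; the black bar is the median, 0.69 for replication-dependent histones at the top and -0.69 for snoRNA host genes at the bottom.

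Most proteasome and chaperone genes tested were called higher. Of 31 proteasome subunits, 30 were called higher and 1, PSMA1, lower, with a median of 0.29. PSMC1, an ATPase of the regulatory particle (chromosome 14, 90256527 to 90275429), was present at 225.2, 225.1 and 229.3 CPM in the ΔE8 libraries, against 149.6, 151.5 and 157.2 CPM in the siNT libraries. It was 1.48-fold higher with no overlap (log2 fold change 0.57, SE 0.025, edgeR adjusted p = 2.87e-13). PSMC5, PSMC4 and PSMD2, also of the regulatory particle, were 1.48-fold, 1.44-fold and 1.4-fold higher. The summed proteasome level was 5512 to 5659 CPM in ΔE8, 5552 to 5782 CPM in FL, 4674 to 4787 CPM in siTAF5 and 4420 to 4467 CPM in siNT.

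Among heat shock proteins and chaperones, 14 of the 20 members tested were called higher and 4 lower, with a median log2 fold change of 0.27. The inducible HSP90 gene HSP90AA1 stood at 3955, 3741 and 3876 CPM in the ΔE8 libraries, against 2520, 2669 and 2651 CPM in the siNT libraries, 1.48-fold higher without overlap (log2 fold change 0.56, SE 0.025, edgeR adjusted p = 3.89e-13). DNAJA1, a co-chaperone of HSP70, was 1.7-fold higher at 255 ± 8.31 CPM in ΔE8 against 150.1 ± 5.27 CPM in siNT, and HSPA8 1.55-fold higher at 1470.0 ± 26.8 CPM in ΔE8 against 951 ± 25 CPM in siNT. HSPA1B was 1.43-fold higher, with reads that it may share with the near-identical HSPA1A. In the endoplasmic reticulum, the list of the unfolded protein response had 11 of 20 higher and 2 lower, with a median of 0.11. CALR, a calcium-binding chaperone, was 1.47-fold higher, CRELD2 1.46-fold, MANF 1.43-fold and HSPA5, the chaperone BiP, 1.37-fold.

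Lysosome and autophagy genes were divided, with 13 of 24 higher, 9 lower and a median of 0.10. Next to SQSTM1, ATP6V0D1 of the proton pump was 1.63-fold higher.

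Genes of DNA replication were mostly higher, with 20 of 30 called higher, 5 lower and a median of 0.14. RRM2, the ribonucleotide reductase subunit that limits nucleotide supply, stood at 402.1, 392.9 and 386.8 CPM in the ΔE8 libraries, against 209.2, 214.5 and 215.9 CPM in the siNT libraries. It was 1.85-fold higher without overlap (log2 fold change 0.89, SE 0.026, edgeR adjusted p = 1.02e-15). CDC6, which licenses replication origins, was 1.57-fold higher, and MCM5 of the replicative helicase 1.39-fold. Genes of mitosis were mixed, with 11 of 27 higher and 9 lower, and 10 and 10 with upper-quartile scaling. The mitotic kinase gene AURKB was 1.37-fold lower and the checkpoint gene MAD2L1 1.33-fold lower, whereas NUSAP1 was 1.37-fold and TPX2 1.23-fold higher.

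Among p53 targets, 17 of the 26 members tested were called higher and 4 lower, with a median log2 fold change of 0.26. XPC, a sensor of DNA damage, was 1.57-fold higher at 80.8 ± 0.452 CPM in ΔE8 against 51.5 ± 1.09 CPM in siNT, POLH, a translesion polymerase, 1.6-fold higher, and PPM1D, a phosphatase that opposes p53, 1.54-fold higher. CCNG1 fell 1.43-fold, at 253 ± 6.49 CPM in ΔE8 against 362 ± 6.36 CPM in siNT. HEK293 cells carry viral proteins that bind p53, which limits the line as a model of its response. Apoptosis regulators had 10 of 29 higher and 13 lower, with a median of -0.02. The survival gene MCL1 was 1.55-fold higher at 284 ± 5.36 CPM in ΔE8 against 182 ± 1.86 CPM in siNT, while the pro-apoptotic genes PMAIP1 and BMF were 1.5-fold and 1.59-fold lower, as was the anti-apoptotic BCL2L2, 1.44-fold.

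Splicing factors had 22 of 32 called higher and 10 lower, with a median of 0.13. HNRNPU, an abundant nuclear RNA-binding protein, stood at 1559, 1517 and 1524 CPM in the ΔE8 libraries, against 1020, 1062 and 1034 CPM in the siNT libraries, 1.48-fold higher without overlap (log2 fold change 0.56, SE 0.020, edgeR adjusted p = 2.3e-14). HNRNPM and the SR protein gene SRSF6 were 1.53-fold and 1.63-fold higher, and HNRNPA1 was 1.34-fold lower. Of 7 nuclear-retained noncoding RNAs, 4 were higher and 2 lower. NEAT1, the scaffold of paraspeckles (chromosome 11, 65422774 to 65445540), was present at 109.2, 132 and 129.9 CPM in the ΔE8 libraries, against 44.34, 52.48 and 51.52 CPM in the siNT libraries. It was 2.49-fold higher, with all ΔE8 libraries above all siNT libraries (log2 fold change 1.32, SE 0.065, edgeR adjusted p = 1.28e-12). TUG1 and MALAT1 were 1.51-fold and 1.44-fold higher, and OIP5-AS1 was 1.12-fold lower.

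Respiratory chain genes of the nucleus and of mitochondrial DNA moved mostly in opposite directions. Of 48 nuclear-encoded genes, 30 were called higher and 6 lower, with a median of 0.15. NDUFB10 of complex I was 1.36-fold higher at 226 ± 1.89 CPM in ΔE8 against 166 ± 3.22 CPM in siNT, NDUFB9 1.3-fold, and the ATP synthase genes ATP5F1B and ATP5PO 1.25-fold and 1.24-fold. Of 13 mitochondrially encoded genes, 0 were higher and 11 lower, with a median of -0.41. MT-CO1 was measured at 2443, 2684 and 2633 CPM in the ΔE8 libraries, against 3418, 3198 and 3960 CPM in the siNT libraries, 1.36-fold lower (log2 fold change -0.45, SE 0.052, edgeR adjusted p = 2.29e-07). The share of mitochondrial transcripts given above moved with this list, and its part in the result was not tested.

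Among genes of glycolysis and the hypoxia response, 5 of 30 were higher and 19 lower, with a median of -0.22. ENO2 was 1.63-fold and PFKP 1.4-fold lower, whereas TPI1 and PGAM1 were 1.34-fold and 1.23-fold higher. The summed level of the list overlapped, at 15840 to 16160 CPM in ΔE8 and 15890 to 16230 CPM in siNT. Cholesterol synthesis had 8 of 24 higher and 10 lower, with a median of -0.03. SQLE, squalene epoxidase, was 1.74-fold lower at 98.8 ± 3.58 CPM in ΔE8 against 172 ± 2.44 CPM in siNT, STARD4 1.42-fold and MSMO1 1.39-fold lower, and the sterol reductase gene TM7SF2 was 1.81-fold higher at 32.2 ± 0.993 CPM in ΔE8 against 17.8 ± 0.551 CPM in siNT.

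Extracellular matrix and TGF-beta genes were mostly lower. Of 29 tested, 23 were called lower and 2 higher, TIMP1 and P3H1, with a median log2 fold change of -0.53. Next to CRTAP and SPARC, COL2A1, the cartilage collagen gene, stood at 72.61, 73.61 and 72.1 CPM in the ΔE8 libraries, against 137.4, 132.8 and 134.5 CPM in the siNT libraries. It was 1.85-fold lower without overlap (log2 fold change -0.89, SE 0.031, edgeR adjusted p = 1.38e-14). COL6A1 was 1.67-fold lower at 127 ± 3.97 CPM in ΔE8 against 211 ± 7.52 CPM in siNT, TGFB1 had a log2 fold change of -0.87, the cross-linking enzyme gene LOX of -0.87 and the laminin gene LAMA5 of -0.53. Markers of fibroblasts moved the same way: 3 of 10 were tested, 0 were higher and 2 lower (COL1A1 1.86-fold, COL3A1 2.86-fold), and their sum was 10.68 to 10.87 CPM in ΔE8 and 19.45 to 20 CPM in siNT. COL1A2, DCN and FAP were at or near 0 in both groups. The part of other cells, or of fewer cells against less RNA per cell, was not tested and cannot be told apart in bulk RNA.

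Cadherins and protocadherins had 4 of 22 higher and 7 lower, with a median of -0.14. CDH1, E-cadherin, stood at 3.856, 3.527 and 3.917 CPM in the ΔE8 libraries, against 11.78, 11.54 and 12.37 CPM in the siNT libraries, 3.16-fold lower without overlap (log2 fold change -1.66, SE 0.067, edgeR adjusted p = 8.13e-14). CDH3, P-cadherin, was 2.97-fold lower at 8.24 ± 1.04 CPM in ΔE8 against 24.7 ± 1.31 CPM in siNT, and CELSR2 1.34-fold lower. Of 7 markers of keratin-rich epithelium tested, 0 were higher and 5 lower, among them EPCAM, 1.25-fold, CLDN4, CLDN7 and CDH1, which stands in both lists. Their sum ran from 142.8 to 147.9 CPM in ΔE8 and from 176.9 to 179.8 CPM in siNT, and its part in the cadherin values was not tested.

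Interferon-stimulated genes had 6 of 26 higher and 12 lower, with a median of -0.18. Beside BST2 and IL32, EIF2AK2, the kinase PKR, was 1.28-fold lower at 103 ± 3.36 CPM in ΔE8 against 132 ± 2.73 CPM in siNT. Blood cell markers had 0 of 5 tested called higher and 3 lower (HBA1, CD68 and CORO1A), with a sum of 20.96 to 22.41 CPM in ΔE8 and 26.22 to 28.52 CPM in siNT. PTPRC and CD3E were near 0 in both groups, and HBA1 can share reads with the near-identical HBA2. CORO1A lost its call without siNT replicate 2 (edgeR adjusted p = 0.0632). Of the 8 markers of the line itself, 3 were higher and 3 lower. VIM was 1.4-fold and INA 1.49-fold higher, and NEFL was 1.39-fold and PAX2 1.45-fold lower.

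Immediate early genes had 12 of 28 higher and 9 lower, around a median of 0.01. MYC, the growth-promoting transcription factor, was present at 128.2, 129.2 and 124.6 CPM in the ΔE8 libraries, against 256.7, 245.6 and 252 CPM in the siNT libraries. It was 1.97-fold lower and the groups did not overlap (log2 fold change -0.98, SE 0.040, edgeR adjusted p = 8.51e-14). EGR1 was 1.77-fold higher at 26.9 ± 2.12 CPM in ΔE8 against 15.2 ± 0.507 CPM in siNT, and NR4A1 1.56-fold lower at 19.3 ± 0.364 CPM in ΔE8 against 30.1 ± 1.39 CPM in siNT. Targets of YAP-TEAD and BMP signalling had 8 of 19 higher and 5 lower, around a median of -0.02. The signs of both medians turned in some alternatives.

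Within that last list ANKRD1, a YAP target of stressed cells, had the largest rise. Its level was low, 6.269, 5.736 and 7.336 CPM in the ΔE8 libraries, against 0.6256, 0.6943 and 0.4399 CPM in the siNT libraries. The ΔE8 libraries all lay above the siNT libraries, 10.9-fold (log2 fold change 3.45, SE 0.17, edgeR adjusted p = 1.63e-12). ID3, a BMP-induced inhibitor of transcription factors, was 2.17-fold higher at 46.9 ± 2.94 CPM in ΔE8 against 21.5 ± 0.823 CPM in siNT, and CCN1 1.49-fold higher. NOG, which encodes the BMP antagonist noggin, was 2.9-fold lower at 2.51 ± 0.269 CPM in ΔE8 against 7.23 ± 0.125 CPM in siNT.

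The FL and siTAF5 libraries allow ΔE8 to be set beside cells with full-length TAF5 and beside depleted cells. Comparisons with ΔE8 share its libraries, as those with siNT share theirs, so values are given side by side. ΔE8 against FL, which differ in exon 8, doxycycline dose, transgene line and TAF5 RNA level (log2 fold change -0.26, edgeR adjusted p = 2.12e-06), called 7178 genes (37% of those tested), 3359 higher (17.3%) and 3819 lower (19.7%). At least 2-fold differences were 137 higher (0.705%) and 93 lower (0.479%). ΔE8 against siTAF5 called 7884 (40.6%), 3891 higher (20%) and 3993 lower (20.6%), of which 120 were at least 2-fold higher (0.618%) and 178 at least 2-fold lower (0.916%). Of the 12 largest rises over siNT, 9 were higher in ΔE8 than in FL, 1 was lower (DNAH17) and 2 did not pass the test. Of the same 12, 7 were higher in ΔE8 than in siTAF5 and 5 did not pass. Of the 12 largest falls, 11 were lower in ΔE8 than in FL, all but CACNA1G, and 11 lower than in siTAF5, all but SNHG3. These 24 genes were chosen for extreme values in ΔE8, which favours such counts. FL itself called 10608 genes against siNT (54.6%; 27.8% higher and 26.8% lower), with 1.38% at least 2-fold higher and 2.14% at least 2-fold lower. siTAF5 called 9650 against siNT (49.7%; 24.7% higher and 25% lower), with 1.66% at least 2-fold higher and 1.01% lower. All 12 rises of ΔE8 were also called higher in FL than in siNT, and 10 of them in siTAF5. Of the other two, DNAH17 was called lower in siTAF5 than in siNT, at 3.89 ± 0.339 CPM in siTAF5 against 5.69 ± 0.492 CPM in siNT (log2 fold change -0.54, edgeR adjusted p = 0.000294), and HSPB8 was not called (log2 fold change -0.28, edgeR adjusted p = 0.0661). All 12 falls were called lower in both. The 24 genes were chosen by ΔE8 against siNT, and the same siNT libraries enter these calls, which favours them.

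Some genes, chosen after their values were seen, stood near depleted cells and apart from FL; an interval that spans 0 does not show that the groups act alike. TLCD1 had 24.8, 26.12 and 27.61 CPM in ΔE8, 11.46, 11.98 and 10.46 CPM in FL and 26.7, 25.79 and 25.42 CPM in siTAF5. ΔE8 and siTAF5 libraries overlapped, with a log2 difference of 0.01 (95% interval -0.11 to 0.13), and ΔE8 was 2.31-fold higher than FL (edgeR adjusted p = 3.88e-11). SNHG3 differed from siTAF5 by -0.09 (95% interval -0.20 to 0.02) and was 2.13-fold lower than FL. RPSA differed from siTAF5 by 0.04 (95% interval -0.0035 to 0.09) and was 1.39-fold lower than FL. NEAT1 and ASNS had log2 differences from siTAF5 of -0.12 (-0.25 to 0.0032) and -0.0020 (-0.08 to 0.08), against 1.13 and -0.52 from FL. TAF12 differed from siTAF5 by 0.08 (-0.0019 to 0.16) and was 1.62-fold higher than FL.

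Other genes, chosen in the same way, stood near FL and apart from depleted cells. ANKRD1 had 6.269, 5.736 and 7.336 CPM in ΔE8, 6.966, 6.12 and 9.071 CPM in FL and 0.5322, 0.5278 and 0.6316 CPM in siTAF5. Its log2 difference from FL was -0.20 (95% interval -0.46 to 0.06), and it was 11.3-fold higher than in siTAF5. PPP1R15A differed from FL by 0.07 (0.01 to 0.13; edgeR adjusted p = 0.0849) and was 2.26-fold higher than in siTAF5 (edgeR adjusted p = 1.88e-15). MYC differed from FL by 0.03 (-0.05 to 0.12) and was 1.74-fold lower than in siTAF5. NOG, HSPA8 and PSMC1 differed from FL by -0.15 (-0.43 to 0.13), -0.01 (-0.08 to 0.06) and -0.01 (-0.06 to 0.04), against -1.23, 0.36 and 0.39 from siTAF5. The list of matrix genes had a median of 0.05 in ΔE8 against FL and of -0.43 in ΔE8 against siTAF5.

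Others lay beyond both FL and siTAF5. POLR2A was 1.84-fold higher in ΔE8 than in FL (edgeR adjusted p = 2.76e-15) and 1.31-fold higher than in siTAF5 (edgeR adjusted p = 4.23e-10). BST2 was 2.24-fold lower than in FL and 2.48-fold lower than in siTAF5. SQSTM1 was 1.4-fold and 1.46-fold higher, and PCDH19 2.67-fold and 1.52-fold lower than in FL and siTAF5.

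siTAF5 against FL shares no library with ΔE8 against siNT, so these lists of genes can be set beside each other. It called 9477 genes (48.8%). Of the 5987 genes higher in ΔE8 than in siNT, 1536 (25.7%) were higher and 2060 (34.4%) lower in siTAF5 than in FL, where 24.4% of all genes tested were called in each direction. These are 32.5% of the 4732 genes higher in siTAF5 and 43.4% of the 4745 lower. Of the 6104 genes lower in ΔE8 than in siNT, 1493 (24.5%) were lower and 1919 (31.4%) higher in siTAF5 than in FL. Among genes at least 2-fold higher in ΔE8, 41 of 518 (7.92%) were at least 2-fold higher in siTAF5 than in FL and 53 (10.2%) at least 2-fold lower, against 1.69% and 1.08% of all genes tested. Among genes at least 2-fold lower in ΔE8, 50 of 792 (6.31%) were at least 2-fold higher in siTAF5 than in FL and 12 (1.52%) at least 2-fold lower. Shares of the large rises thus exceeded those of all genes tested in both directions. For the large falls, 6.31% exceeded 1.69%, while 1.52% was near 1.08%. Over all calls, the same-direction shares of 25.7% and 24.5% were near 24.4%. The opposite-direction shares of 34.4% and 31.4% were above it. All these base shares are over all genes tested. Genes called in a comparison may be called more readily in another of the same fit. The large rises and falls had a median average log2 CPM of -1.25 and -0.11, against 3.81 for all genes tested. The part of either point in these shares was not tested.

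A contrast added after these values were seen asked whether the ΔE8 difference from siNT equalled the sum of the FL and siTAF5 differences from siNT on the log2 scale. FL, siTAF5 and ΔE8 cells all received the TAF5 siRNA, so the sum holds the siRNA's difference 2 times and ΔE8 holds it once. The parts of the siRNA and of the transgenes in a departure cannot be told apart. The departure from the sum was called above 0 for 1025 genes (5.28%) and below 0 for 1351 (6.96%). Among the 518 genes at least 2-fold higher in ΔE8 it was below 0 for 68 and above 0 for 3, with a median of -0.41. For the 792 at least 2-fold lower it was above 0 for 99 and below 0 for 9, with a median of 0.25. These 518 and 792 genes were chosen by ΔE8 against siNT, and the same libraries enter the departure. A low siNT value, for example, makes a rise larger and the departure lower. The counts and medians of these sets depend on that choice and do not show that changes were less than additive. POLR2A departed by -0.17 (SE 0.033, edgeR adjusted p = 0.00245), ZNF425 by -0.69 and DHRS2 by -0.82. SNHG3 departed by 0.61 and CRTAP by 0.27, both called. BST2, PCDH19 and SQSTM1 departed by 0.12, -0.16 and -0.10 and were not called (edgeR adjusted p = 0.728, 0.27 and 0.13).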

How the data were processed

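Polyadenylated RNA of 12 libraries, 3 in each of 4 groups, was sequenced with a stranded kit, per the labels' protocols. The deposited table holds expected counts per gene, not normalized, as its values show: 45.1% of entries were not whole (tolerance 1e-06). The submitters' processing notes name hg38, STAR 2.7.0f, cutadapt 1.18, Partek 10.0.23.0531 and DESeq2 (version not named). The counting tool, its annotation and its use of strand were not given in the sources used here. There were 32010 genes in the table, 8010 of them without a name. Of their IDs, 95.2% were found in GENCODE release 29, where starts were equal for 69.9% and the stop minus 1 equalled the end for 70.0%, and printed ends are the stop minus 1.

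The design was written for counts. The estimated counts were rounded, which moved no library total by more than 91.27 counts. Tests ran in R 4.3.3 (edgeR 4.0.16; alternatives in DESeq2 1.42.0 and limma 3.58.1). filterByExpr with a minimum count of 10 kept 19424 genes. One quasi-likelihood model with a mean per group was fitted to the 12 libraries after TMM scaling (trimmed mean of M values). Tests were two-sided, p-values were adjusted by Benjamini and Hochberg over the 19424 genes, and the threshold was 0.05. Standard errors (SE) are the absolute log2 fold change divided by the square root of F. Intervals of 95% used that SE and a t quantile with 19.3 degrees of freedom. CPM are counts scaled to TMM library sizes and do not compare levels between genes of different length. Scaling centres the log2 fold changes near 0, so a shift in RNA content per cell would not be seen. The method was also run on simulated data in which only a small share of genes was changed. In the data 62.2% of genes were called, so that run does not check scaling or calling at such a share. Replicate pairs of ΔE8 and of siNT differed by more than counting error, with a chi-square per degree of freedom of 2.78 to 5.14.

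The members, the gene lists and the alternatives were chosen with earlier results of these data known. Lists, 34 in all with 864 of 871 genes in the table, were written from general knowledge and are described by counts and medians only. Named genes were TAF5 and the TFIID subunits, the 12 largest rises and falls with an adjusted p under 0.05, no overlap of libraries and a log2 CPM averaging 2 or more, the most abundant genes of at least 2-fold change, and up to 4 members of each list with the smallest adjusted p. Other members were named after their values were seen. Some genes picked by the rule are not reported here. Alternatives were other scalings, DESeq2 and limma voom, no filter, 6 libraries only, a replicate block and leaving out each library.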

Additional observations from a re-analysis of the deposited data

How the results depend on the processing

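The call count for ΔE8 against siNT was 12091, with 5987 higher and 6104 lower. Other scalings, tools, filters and sample sets gave 11194 (DESeq2) to 12215 genes called, and leaving out 1 library gave 11494 to 11621, so none moved it by as much as 1.5 times. A minimum of 2-fold left 1310 genes, 518 higher and 792 lower, by construction. Genes called by both the main and the alternative fit in the same direction were 92.3% to 99.8% of the main calls. Upper-quartile factors gave 5309 higher and 6862 lower, and library totals 6221 and 5920. The median of all genes tested, -9e-04 on the log2 scale, moved to -0.0429 with upper-quartile factors, 0.0116 with library totals, -0.0195 without the filter and -0.0072 with the 6 libraries only, and ranged from -0.0115 to 7e-04 without 1 library; the cause was not tested. Same-numbered ΔE8 and siNT libraries did not deviate together (correlations of -0.0347, 0.019 and -0.0411). The labels state no pairing, and with 3 libraries a group these correlations cannot show whether same-numbered libraries were handled together. A replicate block called 12215 genes. Calls ran from 6127 to 7409 for ΔE8 against FL, from 6884 to 8092 for ΔE8 against siTAF5 and from 8571 to 9602 for siTAF5 against FL. The departure contrast, added later, called 2376 genes, and 1657 to 2685 under its alternatives. Of the 163 named genes, none that was called in the main fit changed direction under an alternative. Changes of direction were not counted for those not called in the main fit. Of the values under alternatives, 2268 kept their side of the threshold, 9 lost and 5 gained a call, in CORO1A, TBP, TAF1, TAF10 and TAF7. Of 54 histone genes, 39 passed the filter, of 10 fibroblast markers 3 and of 11 blood cell markers 5.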

Other observations

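The genes with the largest changes differed in kind. Of the 518 genes at least 2-fold higher in ΔE8 than in siNT, 240 (46.3%) were annotated as long noncoding RNAs and 185 had no name, and 222 (42.9%) were protein-coding. Of the 792 at least 2-fold lower, 135 (17.1%) were long noncoding RNAs and 626 (79%) protein-coding, shares near those of all genes tested (17% and 75.4%). The genes at least 2-fold higher had a median average log2 CPM of -1.25, those at least 2-fold lower of -0.11 and all genes tested of 3.81. Restricted to a log2 CPM averaging 2 or more, there were 44 genes at least 2-fold higher, 8 of them (18.2%) long noncoding. There were 171 at least 2-fold lower, 9 of them (5.26%) long noncoding. Of all 12315 genes tested at that level, 469 (3.81%) were long noncoding. The part of low counts in these shares was not tested.

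Among genes with that expression level and a RefSeq promoter, the letters CGGAAG on either strand between -250 and 50 were found in 47.5% of the genes called higher and 31.3% of those called lower, against 39.8% of all. Among those at least 2-fold higher, CGGAAG was found in 10 of 32 (31.25%), and among those at least 2-fold lower in 26 of 118 (22.03%). Both shares were below that of all, so the higher share did not extend to the large rises. CGGAAG is the core of the motif bound by ETS factors. The letters CCAAT on either strand were found in 45.5% of the genes called higher and 42% of those called lower, and CACGTG, the E-box bound by MYC and related factors, in 14% and 12.5%. In the sets at least 2-fold higher and lower, CCAAT was found in 34.4% and 33.9%, and CACGTG in 6.25% and 5.085%. These are descriptions of letters without a test.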
